A study of Mus musculus with 4 samples.

Results

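The cells described here are those that the authors' annotation of antigen-presenting cells (APCs) names mLC, read as migratory Langerhans cells. They were found by joining the annotation table to the barcodes of the count matrices through the UMI count, gene count and mitochondrial percent of each cell. There were 280 such cells among 1731 annotated APCs and 5825 annotated cells in all, 146 from the control library and 134 from the RGX-104 library. All 2881 control and 2944 RGX-104 annotated cells matched exactly 1 barcode.

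The cells came from tumor-draining lymph nodes of wild-type mice, resected 8 days after injection of tumor cells. One group ate control chow. The other ate chow that held RGX-104, which activates the liver X receptors (LXR), from day 3. Sorted T cells and APCs of the digested nodes went through droplet (10x) RNA sequencing of transcript 5′ ends, and T cell receptor (TCR) transcripts were sequenced in parallel. Both groups carried the tumor and had the same resection day; the strain, sex, age, tumor line and number of pooled mice are not given in the sources used here. With 1 library of each kind per chow there is no replicate check and no test between chows. All intervals are 95% intervals that cover counting error only.

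Langerhans cells are the resident phagocytes of the epidermis. They hold themselves among keratinocytes by adhesion molecules, take up antigen through lectins such as langerin, and on maturation move through lymph vessels to the draining node, where they arrive with high levels of the chemokine receptor Ccr7 and the actin-bundling protein Fscn1. LXR alpha (Nr1h3) and LXR beta (Nr1h2) are nuclear receptors for oxysterols. With their RXR partners they switch on cholesterol export (Abca1, Abcg1), fatty acid synthesis (Srebf1, Scd1, Scd2, Fasn) and the ubiquitin ligase Mylip.

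The 2 RNA libraries held 7346 and 8671 barcodes, with medians of 3276 and 3119 UMIs (unique molecular identifiers, which count transcripts). The mLC had a median of 6909 UMIs and 2187 genes per cell in the control library and 7330 UMIs and 2226 genes in the RGX-104 library, and summed to 1046567 and 1032099 UMIs. Their ribosomal protein share was 19.7% in both libraries and their mitochondrial share 2.40% and 2.44%. The median doublet score of the authors' annotation was 0.0694 in control and 0.0331 in RGX-104 mLC, and its part in the results was not tested. The libraries shared 95 barcode sequences, and 0 of them were mLC in both. Levels below are CPM, the UMIs of a gene in each 1e+06 UMIs of the type and library, both summed over cells.

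Of the 5 Langerhans markers, Epcam and Mfge8 separated mLC from the other APC types, while Cd207 and Cldn1 were shared with rcDC1 and Ly75 was higher in mcDC1. Comparisons were made with the 5 other types that had at least 50 cells in each library: mcDC1, mcDC2, rcDC1, rcDC2 and mono, as the authors name them. Mfge8, a secreted protein that bridges dying cells to phagocytes, reached 1188 and 823 CPM in control and RGX-104 mLC, 7.42-fold and 4.05-fold above the highest other type. Epcam, an epithelial adhesion molecule, stood at 109 and 110 CPM, 3.05-fold and 4.21-fold above the highest other type, which was rcDC2 at 35.8 and 26.2 CPM. Cd207, langerin, stood at 53.5 and 84.3 CPM in mLC and at 37.3 and 93.9 CPM in rcDC1, and had 0 UMIs in mcDC2, rcDC2 and mono. Cldn1, a tight junction claudin, stood at 58.3 and 57.2 CPM in mLC and at 48.2 and 65.5 CPM in rcDC1. Ly75, the endocytic receptor DEC-205, stood at 167 and 155 CPM in mLC and at 217 and 281 CPM in mcDC1. Since the authors' types rest on these same counts, differences between types are a description.

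**Figure D1:**
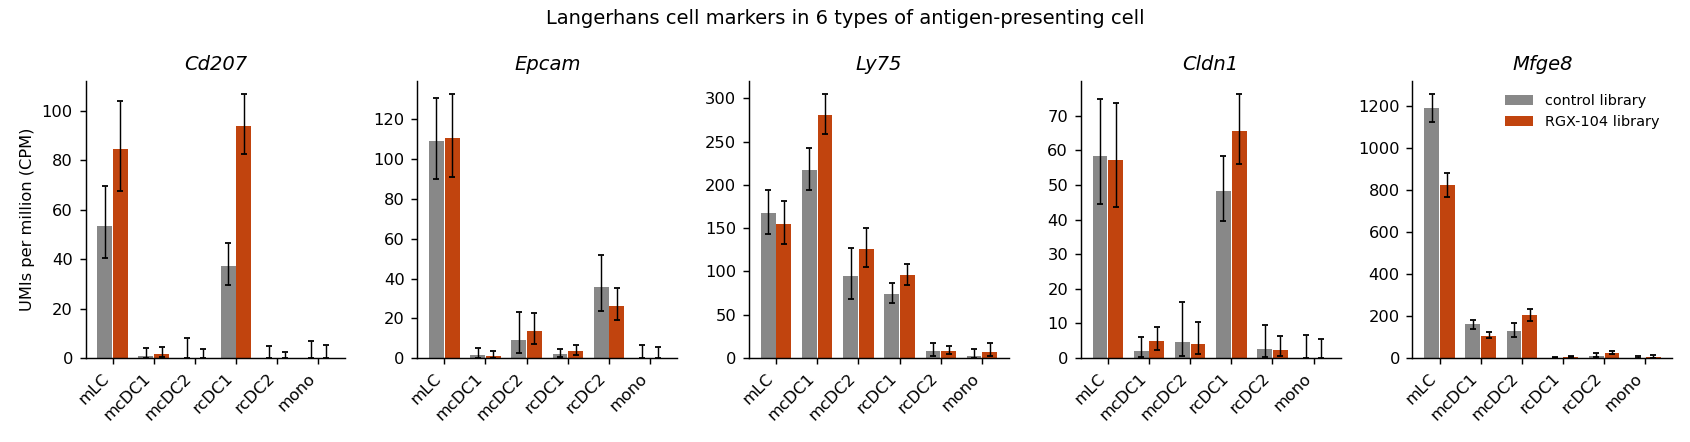
Levels of the 5 Langerhans markers in mLC and 5 other APC types. Each bar is the CPM of 1 library, gray for control and orange for RGX-104, and the lines are 95% Poisson intervals. Epcam and Mfge8 were highest in mLC in both libraries, while rcDC1 had Cd207 and Cldn1 at levels near those of mLC and mcDC1 had more Ly75.

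Cell by cell, at least 1 of the 5 markers was detected in 140 of 146 control and 130 of 134 RGX-104 mLC, and at least 3 in 67 and 65. A Cd207 UMI was found in 35 control mLC (24.0%, 17.3% to 31.7%) and 44 RGX-104 mLC (32.8%, 25% to 41.5%). In annotated T cells, which should lack langerin, the share was 0.0476% and 0.100% at median depths of 4944 and 5048 UMIs. After each mLC was thinned to 2000 UMIs, leaving out 3 shallower cells in each library, 8.17% of control and 12.9% of RGX-104 mLC kept a Cd207 UMI. Cd207 detection therefore marked a minority of the cells named mLC at this depth in both libraries.

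Markers of other lineages were only partly missing. In control and RGX-104 mLC, 3 and 4 of 10 cDC1 markers and 5 and 4 of 12 cDC2 markers had 0 UMIs. The same held for 5 and 3 of 14 monocyte and macrophage markers. The cDC1 markers Xcr1 and Tlr3, the cDC2 markers Cd209a and Clec10a, the macrophage markers Fcgr1, Ms4a7 and Vsig4, the keratinocyte keratins Krt5 and Krt14 and all 9 neutrophil markers had 0 UMIs in both libraries, which allows up to 2.87 CPM per gene in control mLC and 2.91 CPM in the RGX-104 library. The 10 cDC1 markers still summed to 779.7 and 851 CPM, nearly all from the transcription factors Irf8 (340 and 445 CPM) and Batf3 (397 and 366 CPM). They summed to 1043 and 1135 CPM in mcDC1 and to 3539 and 3709 CPM in rcDC1. The 10 pDC markers summed to 223 and 229.6 CPM, mostly from Bst2, against 17072 and 15875 CPM in pDC, and the 8 B cell markers to 97.5 and 112 CPM. The 12 cDC2 markers summed to 91.7 and 101 CPM in mLC, against 1978 and 1854.5 CPM in rcDC2. The 14 monocyte and macrophage markers summed to 76.4 and 109 CPM in mLC, against 16475 and 20461 CPM in mono. The 10 T cell markers, none at 0, summed to 98.4 and 66.9 CPM in control and RGX-104 mLC, against 5059.5 and 4649 CPM in T cells. These sums were the highest of the 6 compared APC types, with 27.8 to 50.8 CPM in the other 5 of the control library and 29.8 to 54.2 CPM in those of the RGX-104 library. Macrophages, which had too few cells to be compared, held more, with 267 and 74.0 CPM. At least 2 UMIs of the T cell markers were carried by 29 control and 15 RGX-104 mLC. No mLC carried a productive TCR contig, 0 of 146 and 0 of 134, which allows shares of up to 2.05% and 2.24%; the other APCs had contigs in 6 of 636 and 5 of 815 cells.

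Among all genes with at least 50 CPM in mLC, 22 of 2311 (0.952%) were at least 2-fold above the highest of the 5 other types in both libraries. Fam189a2 stood at 116 and 110 CPM in mLC and had 0 UMIs in the other types of the control library. With 0 taken as 3 UMIs it was at least 17.2-fold lower there. In the other types of the RGX-104 library it stood at most at 2.05 CPM. Tcaf2, which encodes a factor associated with the cold-sensing channel TRPM8, stood at 82.2 and 101 CPM in mLC and at most at 1.39 CPM elsewhere. Tcim, a small regulator of transcription, was found at 50.6 and 52.3 CPM in mLC and at most at 1.39 CPM elsewhere. All 3 were at or near 0 in the 5 other types.

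Adhesion and signaling genes followed. Cdh2, N-cadherin, stood at 153 and 158 CPM in mLC against 47.2 and 21.9 CPM in the highest other types. Rapgef5, an exchange factor for Rap GTPases, stood at 54.5 and 63.9 CPM, 12.1-fold and 4.79-fold above the highest other type. Trio, a guanine nucleotide exchange factor, stood at 221 and 200 CPM, 2.30-fold and 2.81-fold above it. H2-M2, a nonclassical class I molecule, stood at 3075 and 2646 CPM in mLC and at 1298 and 996 CPM in mcDC2, the next type. Hebp1, a heme-binding protein, stood at 176 and 172 CPM against 40.4 and 74.8 CPM in mono. The remaining genes of the 15 most set apart were Xlr, Serpinb6a, Trp53inp1, Phf24 and Mtss2, at 2.20-fold to 7.78-fold above the highest other type. Xlr, Serpinb6a and H2-M2 belong to families of close copies, so reads could have been split among relatives.

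Class II genes were among those set apart at the opposite end. Of 1342 genes at 50 CPM or more in every other type, 23 (1.71%) were at least 2-fold lower in mLC than in the lowest of them in both libraries. The first 2 by size were not class II genes: Ifitm3, an antiviral membrane protein, was 10.5-fold and 8.01-fold lower, and Tspan13, a tetraspanin, 8.25-fold and 10.5-fold lower. H2-Ab1, the beta chain of the class II molecule I-A, stood at 182 and 152 CPM in mLC and between 924 and 9589 CPM elsewhere, 7.08-fold and 6.08-fold lower than in the lowest other type. H2-Eb1 was 4.82-fold and 4.47-fold lower, and H2-DMa, which helps load peptides, 5.82-fold and 4.84-fold lower. Summed over 19 class II presentation genes, mLC held 9755 and 8355 CPM, the lowest of the 6 types in both libraries; the next lowest were mcDC1 with 23486 CPM in the control library and mcDC2 with 19497 CPM in the RGX-104 library. Ass1, the arginine-making enzyme, Fgl2, Cotl1, Plek and Cd81 were 3.10-fold to 7.23-fold lower.

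**Figure D2:**
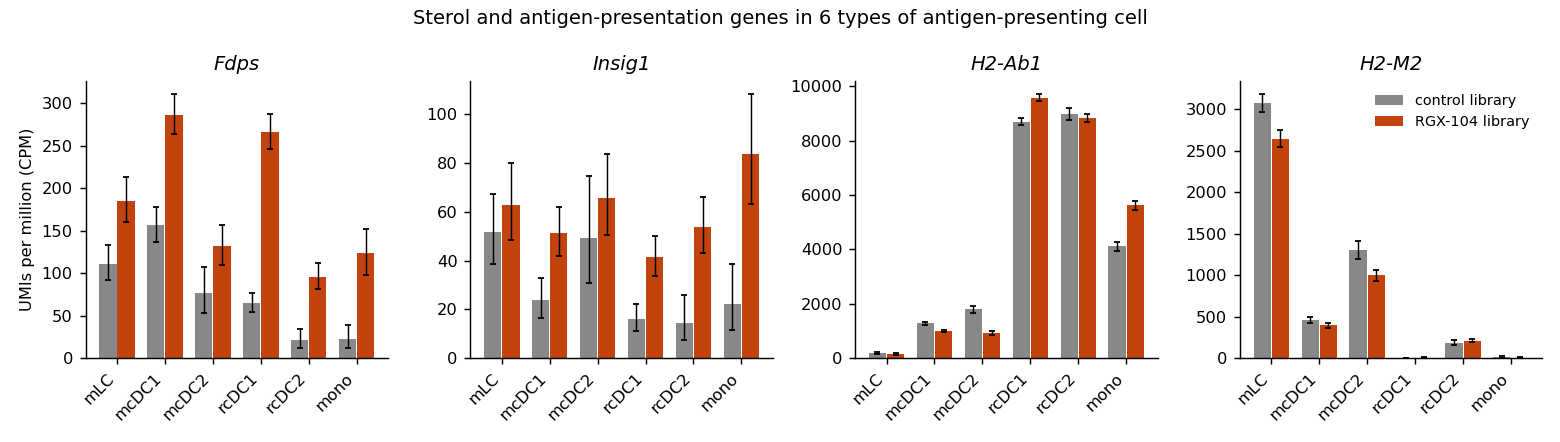
Levels of 2 sterol genes (Fdps, Insig1) and 2 antigen-presentation genes (H2-Ab1, H2-M2) in mLC and 5 other APC types. Bars are CPM in 1 library (gray control, orange RGX-104) with 95% Poisson intervals; in control mLC, Fdps and Insig1 were at 111 and 51.6 CPM, H2-Ab1 was near the bottom of its axis, and H2-M2 was highest in mLC.

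The whole profile of mLC was most like that of the migratory types. Pearson's r of log2(CPM + 1) across 8169 genes in the control library was 0.898 with mcDC1 and 0.855 with mcDC2, and 0.559 to 0.656 with rcDC1, rcDC2 and mono. Across 8913 genes in the RGX-104 library it was 0.905 and 0.895, and 0.597 to 0.676. Genes within a library share its depth and are not replicates. The 26 genes of the mature migratory program, those that dendritic cells switch on as they mature and travel, summed to 45725 and 46504 CPM in mLC, to 33174 to 40992 CPM in mcDC1 and mcDC2 and to at most 4587 CPM in the other types. A Fscn1 UMI was found in all 146 control and all 134 RGX-104 mLC and in 3.67% and 3.71% of T cells.

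The mLC made up 18.7% (16% to 21.6%) of control APCs and 14.1% (12% to 16.5%) of RGX-104 APCs, a ratio of 0.756 (0.594 to 0.963). Of the migratory types mcDC1, mcDC2 and mLC together they were 39.6% and 29.6%, a ratio of 0.749 (0.588 to 0.954). Of all annotated cells they were 5.07% and 4.55%, and this ratio of 0.898 (0.705 to 1.14) did not exclude 1. The number of mLC per library, 146 and 134, was close, while mcDC2 numbered 57 and 104 and rcDC2 87 and 167. The sort and the authors' annotation set these denominators: annotated cells all had at least 801 genes and under 5% mitochondrial UMIs. The authors' cell cycle calls placed 25 control and 16 RGX-104 mLC in S phase and 3 and 0 in G2M.

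Between chows, LXR targets for cholesterol export, fatty acid synthesis and Mylip were higher in the RGX-104 library. In all, 4537 genes were measured in mLC, that is, had 50 or more UMIs summed over the 2 libraries. Of these genes 185 (4.08%) were at least 1.5-fold higher and 216 (4.76%) at least 1.5-fold lower in the RGX-104 library, with a median log2 ratio of -0.01, and past 2-fold the shares were 0.661% and 0.485%. Of 24 listed LXR targets 13 were measured, and 7 were at least 1.5-fold higher and 0 lower to that extent. Of these 7, Abca1, Scd1, Scd2, Fasn and Srebf1 reached 50 UMIs only because of their higher level in the RGX-104 library, with 4 to 24 control UMIs, so that the filter builds in their difference and the count of 7 is only a description. Abcg1 and Mylip had over 50 UMIs in the control library alone. The 11 targets under the minimum summed to 22 control and 45 RGX-104 UMIs, a ratio of 2.07 (1.22 to 3.63), of which Apoe, the lipoprotein that accepts cholesterol, gave 12 and 28.

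The promoters of 3 of these higher genes are shown because they hold a match to the bipartite element that LXR and RXR bind. RefSeq promoters (GRCm38.p6) were searched on both strands for a direct repeat of GGTNA, its copies separated by 5 bases of any kind, in windows from 250 bases before to 50 after the start; 16 of the 24 listed targets had an entry. The motif was found in 0.718% of 32851 promoters, or in 0.818% of 27025 genes. Of the 16 listed targets with an entry 3 had it: Abca1, Fasn and Srebf1. Only 8 of the 16 were measured in mLC. All 3 matches were among them, but these 3 genes reached the minimum only because of their higher level in the RGX-104 library. Srebf1 had the motif in 1 of its 3 promoters. The form searched was chosen with the known Abca1 element in mind, and a match is a description, not a bound site. Capitals mark the match, and each sequence is the 250 bases before the start, 5′ to 3′ on the gene's strand.
Abca1 (chr4:53159896-53160145, minus strand): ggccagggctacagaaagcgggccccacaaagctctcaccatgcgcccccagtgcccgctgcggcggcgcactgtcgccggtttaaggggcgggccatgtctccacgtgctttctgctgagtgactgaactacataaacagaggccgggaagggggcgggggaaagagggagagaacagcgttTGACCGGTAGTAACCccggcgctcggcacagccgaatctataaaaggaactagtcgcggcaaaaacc
Fasn (chr11:120824548-120824797, minus strand): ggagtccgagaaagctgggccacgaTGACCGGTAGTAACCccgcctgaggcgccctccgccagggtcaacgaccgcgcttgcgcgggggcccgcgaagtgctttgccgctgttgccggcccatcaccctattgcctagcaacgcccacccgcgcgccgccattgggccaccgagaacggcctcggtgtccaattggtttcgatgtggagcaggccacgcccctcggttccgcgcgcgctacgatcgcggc
Srebf1 (chr11:60210472-60210721, minus strand): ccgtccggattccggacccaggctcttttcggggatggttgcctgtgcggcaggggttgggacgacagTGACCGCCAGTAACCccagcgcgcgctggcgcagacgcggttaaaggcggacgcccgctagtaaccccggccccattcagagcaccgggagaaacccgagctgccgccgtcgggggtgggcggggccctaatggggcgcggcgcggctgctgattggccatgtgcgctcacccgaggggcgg
The matched 15 bases were the same in Abca1 and Fasn, and lay 67 to 53 bases before the start in Abca1, 225 to 211 in Fasn and 182 to 168 in Srebf1.

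Cholesterol exporters were the first group of targets. Abca1 (ENSMUSG00000015243, chromosome 4, 53030789 to 53159988), which loads cholesterol onto lipid-poor apolipoproteins, had 4 UMIs in 3 of 146 control mLC and 86 UMIs in 53 of 134 RGX-104 mLC. Its level was 3.82 CPM (1.04 to 9.79) and 83.3 CPM (66.7 to 103), a ratio of 21.8 (8.21 to 81.8). Without the cell that held most of its UMIs in each library the ratio was 41.6, and without cells that carried T or B cell transcripts it was 60.1, since the control level rests on 4 UMIs. Abcg1 (ENSMUSG00000024030, chromosome 17, 31057694 to 31117984), which exports cholesterol to lipoprotein particles, was already present in 119 control mLC and was found in 129 RGX-104 mLC. It stood at 277 CPM (246 to 311) and 594 CPM (548 to 643), a ratio of 2.14 (1.86 to 2.47). The Poisson intervals of both exporters were thus separate between the libraries.

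Fatty acid genes were next. Scd2 (ENSMUSG00000025203, chromosome 19, 44293676 to 44306864), a stearoyl-CoA desaturase, had 24 and 125 UMIs, or 22.9 and 121 CPM, a ratio of 5.28 (3.39 to 8.55). Its relative Scd1 had 6 and 51 UMIs, a ratio of 8.62 (3.70 to 24.6), and reads may be split between the pair. Fasn, fatty acid synthase, had 12 and 43 UMIs, a ratio of 3.63 (1.88 to 7.57). Srebf1 (ENSMUSG00000020538, chromosome 11, 60199084 to 60224186), the transcription factor that drives this pathway, had 20 and 47 UMIs with a ratio of 2.38 (1.38 to 4.25), which was 5.69 in mLC with at least 3 of the 5 markers. Of 16 listed fatty acid synthesis genes 6 were measured, and 5 of them were at least 1.5-fold higher, against 4.08% of all measured genes. The filter partly sets this count, since Scd1, Scd2, Fasn and Mid1ip1 had 6 to 24 control UMIs and passed through the RGX-104 library. Scd1, Scd2 and Fasn are also in the list of LXR targets. Acly, which makes cytosolic acetyl-CoA, had a ratio of 1.52 (1.01 to 2.30). The 10 members under the minimum summed to 84 and 127 UMIs, a ratio of 1.53 (1.15 to 2.04).

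Mylip (ENSMUSG00000038175, chromosome 13, 45389742 to 45411940) stood at 59.2 CPM (45.4 to 75.9) and 166 CPM (142 to 192), a ratio of 2.80 (2.08 to 3.80), with UMIs in 36 control and 84 RGX-104 mLC. Arl4c, a small GTPase, had a ratio of 1.39 (1.18 to 1.63). The ratios of Abca7, Smpdl3a, Pnpla2 and Plin2 were 1.01 to 1.26 with intervals that held 1. For Ccr7, the homing receptor, 3912 and 3726 CPM gave a ratio of 0.953 (0.911 to 0.996). The ratio was 1.02 without cells that carried T or B cell transcripts and 1.02 in cells with at least 3 Langerhans markers. Of the receptors, Nr1h2 had 55 and 60 UMIs with a ratio of 1.11 (0.754 to 1.62), and Nr1h3 had 3 and 0 UMIs, so that no fold could be given. The partner gene Rxra had 2 and 2 UMIs, Rxrb 29 and 17 and Rxrg 0 and 0.

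**Figure D3:**
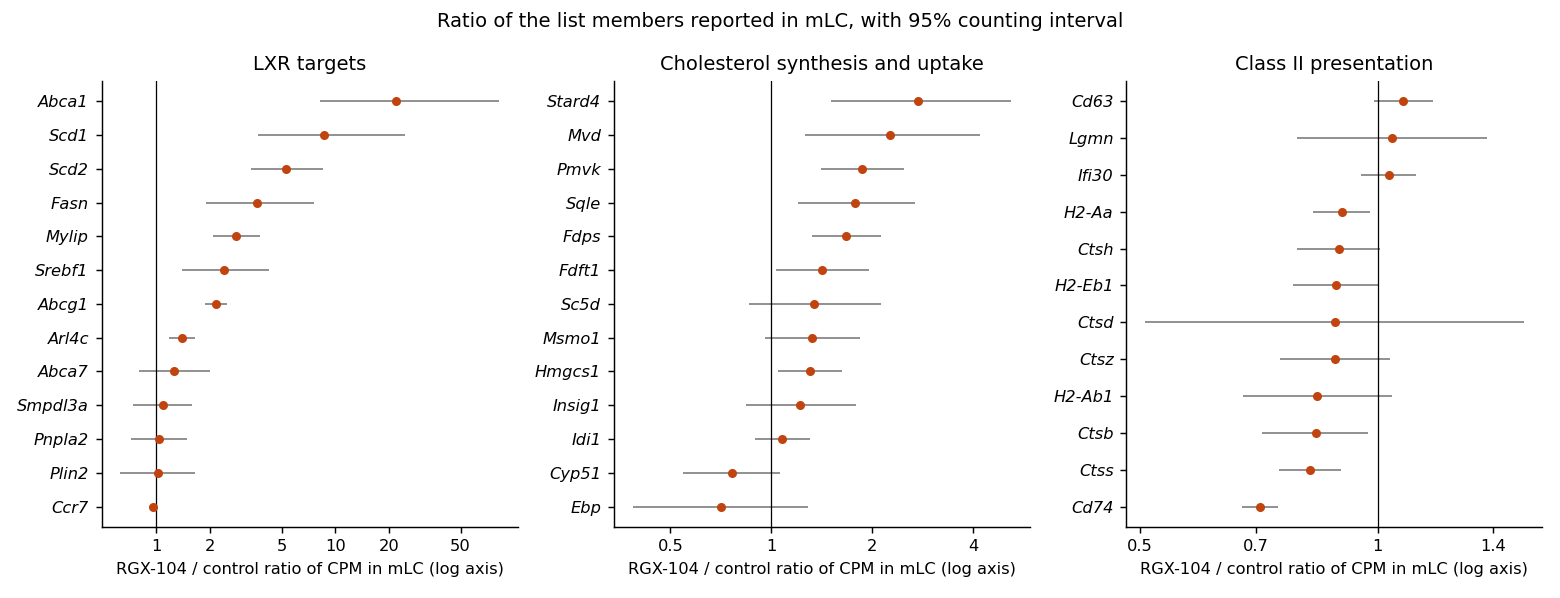
RGX-104 to control ratio in mLC of the measured members reported here of 3 lists, on a log axis. Points are ratios of CPM and lines their 95% counting intervals, with a vertical line at 1. The 7 highest LXR targets, from Abca1 at 21.8 to Abcg1 at 2.14, lay past 1.5, the cholesterol genes ran from Stard4 at 2.73 to Ebp at 0.710, and 9 of the 12 class II genes lay below 1.

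Detection of the higher LXR targets differed by gene and by cell. In the RGX-104 library Abcg1 was found in 96.3% and Mylip in 62.7% of mLC, Scd2 in 48.5%, Srebf1 in 28.4%, Fasn in 25.4% and Scd1 in 24.6%; in control mLC Abcg1 was already in 81.5% and the other 5 in 3.42% to 24.7%. Counting Abca1, Abcg1, Srebf1, Scd1, Scd2, Mylip and Fasn, chosen because they were higher, at least 3 of the 7 were detected in 18 of 146 control mLC (12.3%) and 92 of 134 RGX-104 mLC (68.7%). None of the 7 was detected in 17 control cells and 1 RGX-104 cell, whose median depths of 4999 and 2683 UMIs were below those of all mLC. An Abca1 UMI was found in 2.05% (0.426% to 5.89%) of control and 39.6% (31.2% to 48.4%) of RGX-104 mLC; thinned to 2000 UMIs per cell the shares were 0.448% and 14.5%. The T cells gave no background for this gene, since they held it in 6.53% and 41.4% of cells. For Abcg1 the thinned shares were 42.9% and 67.8%, and for Mylip 10.3% and 26.7%.

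**Figure D4:**
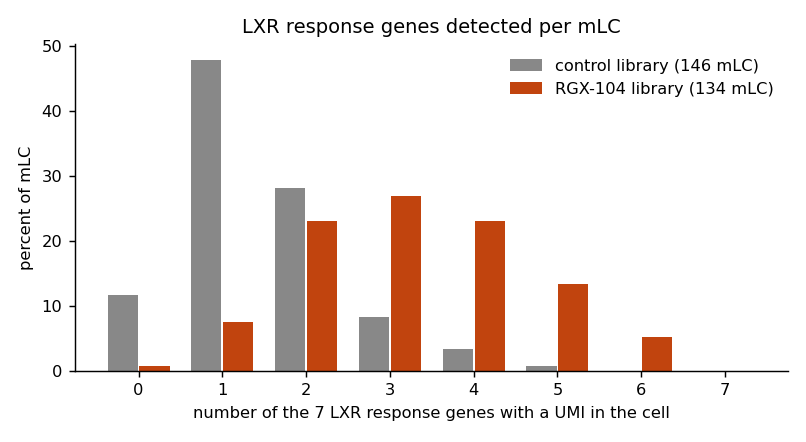
Percent of mLC by the number of 7 LXR response genes with at least 1 UMI in the cell, gray for 146 control and orange for 134 RGX-104 mLC. Control cells peaked at 1 gene (47.9%) and RGX-104 cells at 3 genes (26.9%). Cells are not replicates, and the counts are not thinned to equal depth.

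Cells with and without a Cd207 UMI both showed the response. In cells with a Cd207 UMI, 35 control and 44 RGX-104, Abcg1 had a ratio of 2.32 (1.76 to 3.09), and in the 111 and 90 cells without one 2.11 (1.79 to 2.50). Abca1 had 2 and 30 UMIs in the former, a ratio of 11.9 (3.03 to 103), and 2 and 56 in the latter, a ratio of 31.8 (8.41 to 269). Srebf1 differed: it had 1 and 27 UMIs with Cd207, a ratio of 21.5 (3.54 to 880), and 19 and 20 UMIs without, a ratio of 1.2 (0.606 to 2.37). The ratio of these 2 ratios was 17.2 (2.36 to 773), which excluded 1, while those of the other 6 response genes held 1. Of the 4 Langerhans markers compared in the same split, Ly75 also excluded 1, with 1.71 (1.04 to 2.84). Cells with a Cd207 UMI were deeper, with medians of 8899 and 8454 UMIs against 6346 and 7059, and the part of depth was not tested. The split was made after the data were seen.

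Genes of cholesterol synthesis and uptake differed less in mLC. Of 24 listed genes 15 were measured, 5 were at least 1.5-fold higher and 0 at least 1.5-fold lower. The shares over all measured genes in mLC were 4.08% and 4.76%. Of the 5, Stard4 and Mvd reached the minimum only through the RGX-104 library. The 9 members under the minimum summed to 108 and 136 UMIs, a ratio of 1.28 (0.985 to 1.66). Stard4, which carries cholesterol between membranes, had 16 and 43 UMIs, a ratio of 2.73 (1.5 to 5.18), with 5.6 when cells with T or B cell transcripts were left out and 1.74 in cells with at least 3 markers. The mevalonate enzymes Mvd, Pmvk and Fdps had ratios of 2.25 (1.26 to 4.18), 1.86 (1.41 to 2.48) and 1.67 (1.32 to 2.12), and Sqle, squalene epoxidase, 1.78 (1.2 to 2.68). Among regulators, Scap, the escort of the sterol-sensing factors, had 2.24 (1.36 to 3.79), Srebf2 1.14 (0.906 to 1.44) and Insig1 1.22 (0.838 to 1.78). Scap was found in 24 control mLC with at most 1 UMI per cell, so it too reached the minimum only through the RGX-104 library.

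In 4 of the 5 other APC types a larger share of the same list was higher. The share of measured members at least 1.5-fold higher was 13 of 19 in mcDC1 (4.46% of all measured genes there), 2 of 11 in mcDC2 (6.39%), 15 of 17 in rcDC1 (4.2%), 11 of 12 in rcDC2 (6.77%) and 5 of 6 in mono (7.8%). The minimum partly sets these shares, since members could pass it through the RGX-104 library. The whole list had 190 control and 1395 RGX-104 UMIs in rcDC2, and 166 and 655 in mono. In the control library the whole list summed to 1259 CPM in mLC, 1279 in mcDC1, 1006 in mcDC2 and 252 to 365 in the others. With RGX-104 chow the sums were 1634, 2060 and 1396 CPM and 850 to 961 CPM. The ratios of these sums, which no minimum affects, were 1.30 in mLC, 1.61 in mcDC1, 1.39 in mcDC2 and 2.63 to 3.38 in the others.

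Fdps, Insig1 and Pmvk, chosen after their values were seen because they were measured in all 6 types, show how the types differed. Fdps, farnesyl diphosphate synthase, was higher with RGX-104 chow in every type, with ratios of 1.67 in mLC, 1.83 (1.57 to 2.15) in mcDC1, 1.72 (1.17 to 2.59) in mcDC2, 4.12 (3.44 to 4.97) in rcDC1, 4.51 (2.69 to 8.09) in rcDC2 and 5.59 (3.04 to 11.2) in mono. The ratio in mLC divided by that of the other type was 0.406 (0.299 to 0.55) for rcDC1, 0.371 (0.197 to 0.661) for rcDC2 and 0.300 (0.143 to 0.582) for mono, while the quotients to mcDC1 and mcDC2 held 1. For Insig1, which retains the sterol-sensing complex in the endoplasmic reticulum, the quotients were 0.566 (0.32 to 0.989) for mcDC1, 0.472 (0.268 to 0.822) for rcDC1, 0.335 (0.146 to 0.71) for rcDC2 and 0.324 (0.143 to 0.689) for mono, and that to mcDC2 held 1. Pmvk went both ways, with quotients of 1.64 (1.06 to 2.52) for mcDC2 and 0.484 (0.223 to 0.979) for mono, and the other 3 held 1.

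**Figure D5:**
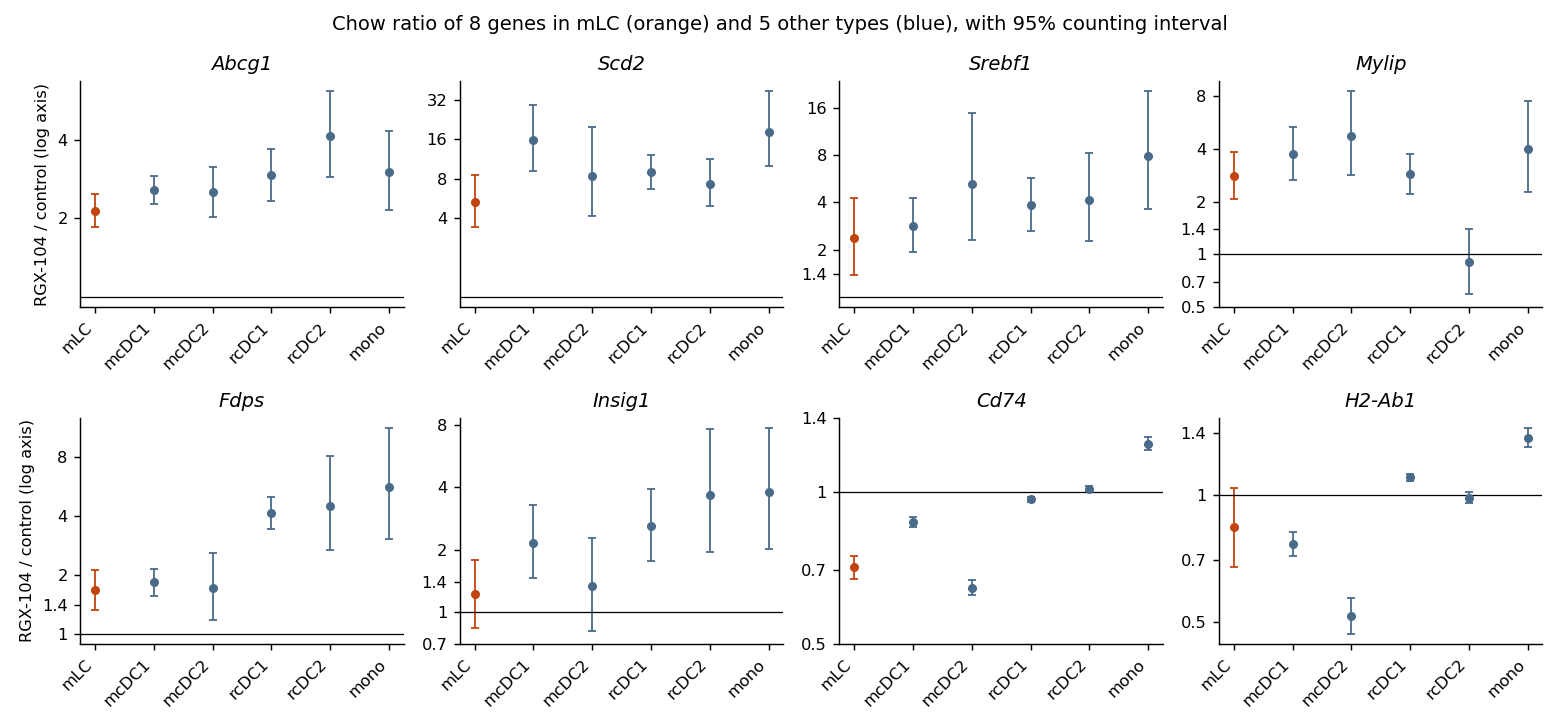
RGX-104 to control ratio of 8 genes in mLC (orange) and 5 other APC types (blue), on log axes, with 95% counting intervals and a line at 1. Abcg1, Scd2 and Srebf1 were above 1 in all 6 types; Fdps was at 1.67 in mLC and above 4 in rcDC1, rcDC2 and mono; Cd74 was lower with RGX-104 chow in mLC, mcDC1, mcDC2 and, slightly, rcDC1 and higher in mono.

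The LXR response of mLC could not be placed above or below that of the other types as a whole. On the 8 targets measured in all 6 types the median log2 ratio was 1.18 in mLC and 1.43 to 1.79 in the others, while over all targets measured in each type it was 1.10 in mLC and ran from 0.20 in mono and 0.88 in mcDC1 to 2.25 in mcDC2. The order thus depended on which targets were counted. The ratio of Abcg1 in mLC divided by that in rcDC2 was 0.518 (0.341 to 0.767) and that in rcDC1 0.732 (0.556 to 0.958), while the quotients to mcDC1, mcDC2 and mono held 1. For Scd2 the quotient was 0.338 (0.156 to 0.706) against mcDC1 and 0.291 (0.124 to 0.640) against mono. For Abca1 none of the 5 quotients excluded 1. Mylip went the other way against rcDC2, where its ratio was 0.907 (0.595 to 1.4), with a quotient of 3.08 (1.80 to 5.22).

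Some class II presentation genes, low in mLC, were lower still in the RGX-104 library. Of 19 listed genes 12 were measured, 0 passed 1.5-fold either way, and the median log2 ratio was -0.18; the intervals of 4 lay below 1 and of 0 above it, against 6.04% and 6.13% of all measured genes. Cd74 (ENSMUSG00000024610), the invariant chain that guards the class II groove, had 3334 and 2362 CPM with a ratio of 0.709 (0.673 to 0.746). The protease Ctss, which trims that chain, had 0.820 (0.749 to 0.899), Ctsb 0.834 (0.714 to 0.973) and H2-Aa 0.900 (0.827 to 0.978). H2-Ab1 and H2-Eb1 had 0.838 (0.674 to 1.04) and 0.884 (0.781 to 1.0). Cd74 had a ratio of 0.646 (0.624 to 0.669) in mcDC2, 0.870 (0.850 to 0.891) in mcDC1 and 1.24 (1.21 to 1.28) in mono. The 7 members under the minimum summed to 80 and 77 UMIs, and Ciita, the class II transactivator, had 4 and 2. Of 19 class I presentation genes, all measured, 0 passed 1.5-fold, and H2-D1 had a ratio of 0.861 (0.823 to 0.901).

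The maturation program had a median near 0 between chows, with single genes off 1 in both directions. Of 26 genes 22 were measured, Cd274 was at least 1.5-fold higher and Ebi3 at least 1.5-fold lower, both with intervals that held 1, and the median log2 ratio was 0.05. The intervals of 7 genes lay above 1 and of 4 below it, against 6.13% and 6.04% of all measured genes. Fscn1 had 5776 and 5222 CPM with a ratio of 0.904 (0.871 to 0.938). Cd83, which stabilizes surface class II, had 1098 and 1430 CPM with a ratio of 1.30 (1.21 to 1.41), against 0.958 to 1.08 in the 5 other types, and all 5 quotients excluded 1, from 1.2 (1.07 to 1.35) to 1.36 (1.22 to 1.51). The chemokines Ccl17 and Ccl22, ligands of Ccr4, had ratios of 1.47 (1.2 to 1.81) and 1.16 (1.07 to 1.27). Cd40, the receptor for T cell help, had 0.772 (0.649 to 0.917). The 4 members under the minimum summed to 39 and 33 UMIs.

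Of type I interferon response genes, Isg15 and Phf11b were lower in the RGX-104 library. Of 28 listed genes 9 were measured, 0 were at least 1.5-fold higher and 3 at least 1.5-fold lower, with a median log2 ratio of -0.31. Among all measured genes 4.08% were higher and 4.76% lower to that extent. Isg15, the ubiquitin-like modifier, had 54 and 29 UMIs, a ratio of 0.545 (0.334 to 0.871), and Phf11b one of 0.599 (0.434 to 0.822). Stat2, the signal transducer of this receptor, had 35 and 20 UMIs, a ratio of 0.579 (0.317 to 1.03), and Rsad2 1.06 (0.686 to 1.64). Stat2 reached the minimum mostly through its control UMIs, so the filter partly sets the count of 3. The 19 members under the minimum summed to 98 and 100 UMIs, a ratio of 1.03 (0.775 to 1.38). In mcDC1 Isg15 had a similar ratio of 0.506 (0.450 to 0.569), and in mcDC2 0.936 (0.544 to 1.66), while rcDC1, rcDC2 and mono had ratios of 1.32 to 1.87 with intervals above 1.

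Langerhans markers themselves also differed. Mfge8 had a ratio of 0.693 (0.634 to 0.756), from 1243 and 849 UMIs, and 0.667 (0.552 to 0.807) in mcDC1 but 1.56 (1.16 to 2.13) in mcDC2. Cd207 had a ratio of 1.58 (1.11 to 2.25) in mLC and 2.52 (1.95 to 3.28) in rcDC1. Epcam, Cldn1 and Ly75 had ratios of 1.01 (0.775 to 1.33), 0.981 (0.674 to 1.43) and 0.927 (0.743 to 1.16). Of the 20 genes of TGF-beta signaling and Langerhans cell transcription factors, 11 were measured, 0 were at least 1.5-fold higher and 1 lower, against 4.08% and 4.76% of all measured genes. That 1 was Itgb8, an integrin subunit that activates TGF-beta, with 46 and 18 UMIs, a ratio of 0.397 (0.217 to 0.698). It reached the minimum mostly through its control UMIs, so the filter partly sets this count. In cells with at least 3 markers its ratio was 0.698. In mcDC2, where it was under the minimum, Itgb8 had 4 and 39 UMIs. Id2, a factor needed for Langerhans cells, had a ratio of 1.16 (1.08 to 1.24), and Skil, a brake on TGF-beta signaling, 1.45 (1.15 to 1.83).

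Of the 10 genes ranked highest by the lower bound of their ratio, 3 were in none of the lipid lists. Lgals3, a galectin, had 65 and 132 UMIs with a ratio of 2.06 (1.52 to 2.82), and Sema7a, a membrane semaphorin, 44 and 95 UMIs with a ratio of 2.19 (1.52 to 3.21). Zfp110, a zinc finger protein, had 21 and 54 UMIs with a ratio of 2.61 (1.55 to 4.55) in mLC. In mcDC1 its ratio was 0.777 (0.486 to 1.25), with a quotient of 3.34 (1.63 to 6.97). Zfp110 passed the minimum through the RGX-104 library and was named for its high ratio in mLC. The quotient uses that same ratio again, is given for mcDC1 only, and is only a description. Lgals3 was also higher in mcDC1, mcDC2, rcDC1 and rcDC2, at 1.31 to 1.80, and had 0.949 (0.845 to 1.07) in mono.

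The 10 lowest were Atrnl1, Serpinb1a, Jun, Klf2, Kmt5c, Akap11, Dscam, Vrk2, Hsbp1 and Itgb8. Atrnl1, a relative of attractin, had 43 and 9 UMIs and was 4.71-fold lower (2.27 to 11). Its chow ratio was 1.06 (0.795 to 1.43) in mcDC1, with a quotient of 0.201 (0.0814 to 0.447). Atrnl1 reached the minimum mostly through its control UMIs and was named for its low ratio in mLC. The quotient uses that same ratio again and is only a description. Serpinb1a, an inhibitor of neutrophil proteases, was 3.33-fold lower (2.09 to 5.49), but 1 cell held 35.8% of its control UMIs, and without the cell with most UMIs in each library its ratio was 0.351 in place of 0.300. Jun, a subunit of the immediate early factor AP-1, had 98 and 37 UMIs with a ratio of 0.383 (0.255 to 0.564), and Klf2, a quiescence factor of lymphocytes, 100 and 39 UMIs with a ratio of 0.395 (0.266 to 0.578). Summed T cell markers were also lower in RGX-104 mLC, with a ratio of 0.679 (0.493 to 0.930), and without cells that carried T or B cell transcripts the ratio of Klf2 was 0.535 and that of Jun 0.311. Of 20 dissociation and stress genes 16 were measured. The intervals of 5 lay below 1 and of 1 above it, against 6.04% and 6.13% of all measured genes. Btg2 was higher, at 1.55 (1.38 to 1.75), and Jund was lower, at 0.648 (0.560 to 0.748), like Jun, while Fos had 1.07 (0.926 to 1.25). The summed list was also lower in other types, with ratios of 0.913 in mLC, 0.819 to 0.889 in mcDC1, mcDC2, rcDC1 and rcDC2 and 0.980 (0.949 to 1.01) in mono. Its part in the ratio of Jun was not tested.

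In 4 other programs the median log2 ratios of measured members ran from 0.04 to 0.23. Median log2 ratios were 0.06 over 24 measured genes of oxidative phosphorylation, 0.04 over 9 of glycolysis, 0.23 over 9 of the interferon gamma response and 0.06 over 18 dendritic cell transcription factors, and 2 values passed 1.5-fold, with intervals that held 1: Cd274 at 1.64 (0.981 to 2.78) and the glycolytic enzyme Eno1 at 0.576 (0.32 to 1.01). Members under the minimum summed to 75 and 50 UMIs for the interferon gamma response, a ratio of 0.676 (0.463 to 0.98), and to 65 and 95 UMIs for cytokines and chemokines, a ratio of 1.48 (1.07 to 2.06). Of 9 measured cytokines and chemokines, Il1b had a ratio of 1.44 (1.04 to 2.02), and the chemokine Ccl5 had 20485 and 21661 CPM with a ratio of 1.06 (1.04 to 1.08). Of 23 pattern recognition genes, Cd207, Ly75 and Ifih1 were measured in mLC.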

How the data were processed

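The annotation tables that the authors deposited give each annotated cell its counts of UMIs and genes, the percent of mitochondrial UMIs, a doublet score as a fraction, cell cycle score columns and a type name. The deposited matrices hold raw UMI counts. Their headers name Cell Ranger 5.0.0, while mm10 and Seurat 5.0.3 come from the submitters' processing notes. Filters before annotation are not given in the sources used here. The doublet column named all mLC singlets, and no cell was removed.

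Each annotated cell was joined to a barcode by UMIs and genes over genes seen in at least 3 barcodes and by mitochondrial percent to 8 decimals. Counts were summed per type and library and divided by their total (CPM). Ratios carry exact conditional binomial intervals, CPM Poisson intervals and shares Clopper-Pearson intervals (scipy 1.17.1, tested on simulated counts). The quotient of 2 ratios has the conditional interval of an odds ratio. A gene was measured if its UMIs in the 2 libraries summed to 50 or more. Thinned shares are exact expectations.

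Named genes are the 10 highest and 10 lowest by the interval bound nearest to 1 with at least 20 CPM in 1 library (no receptor, mitochondrial, ribosomal protein or unnamed genes), the 15 most above and 10 most below all other types, the markers, list members, and genes named for a stated reason. The members and the 32 lists were chosen with earlier results of these data known. Some listed genes are not reported here. TMM factors came from edgeR 4.0.16. TCR contig counts served only to flag barcodes.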

Additional observations from a re-analysis of the deposited data

Results flagged for a closer look

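Isg15 differed in direction between APC types. Its RGX-104 to control ratio was 0.545 in mLC and 1.87 in mono, with intervals on opposite sides of 1. With 1 library per chow the difference was not tested beyond counting error, where the quotient was 0.293 (0.171 to 0.492).

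Barcodes outside the authors' annotation also held Langerhans transcripts. Among 4465 control and 5727 RGX-104 barcodes without an annotation, 4 and 7 carried at least 4 of the 5 markers. With them added, the mLC share of APCs was 19.1% and 14.7%, a ratio of 0.773 (0.610 to 0.979).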

How the results depend on the processing

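No paired analysis was possible because each chow has 1 library and the labels give no replicate numbers. Other scalings (TMM, median-of-ratios, totals without ribosomal protein, mitochondrial and receptor genes) shifted all log2 ratios by at most 0.01. With a minimum of 10 UMIs 975 genes were at least 1.5-fold higher and 1097 lower, of 8978, and 9 cholesterol genes were higher; with 200 UMIs 14 and 5, of 1296, with 2 LXR targets and 2 cholesterol genes higher, since fewer genes were tested. No fatty acid gene reached 200 UMIs. Thinned cells gave 8 cholesterol genes. Without the cells that carried T or B cell transcripts, leaving 102 and 97, 160 of 3384 measured genes were higher and 131 lower. With only the 67 and 65 cells that had at least 3 markers, 179 of 2877 were higher and 108 lower, so in both subsets more genes were higher than lower, against 185 and 216 in all mLC. With at least 3 markers 2 cholesterol genes were higher, and in all mLC 2 were past 2-fold. Ccr7 changed side of 1 in both of these subsets, to 1.02 and 1.02. The share of RGX-104 mLC with an Abca1 UMI was 7.63%, 25.6% and 39.6% at 1000 UMIs, 4000 UMIs and unthinned. Of 300 values of named genes under alternatives, 281 stayed within the interval of the main value, 17 left it and 2 changed side. In cells with at least 3 markers Jun had 0.152, Serpinb1a 0.162 and Sema7a 3.41, and Dscam had 0.204 without cells with T or B cell transcripts; the causes were not tested. Depth limits the values of genes with few control UMIs, such as Abca1 and Scd1, and no value speaks to the spread between mice.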
